A study of Homo sapiens with 4 samples.

Results

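The abundant noncoding RNAs RN7SL1, RN7SL2, RN7SK, RMRP, RPPH1, MALAT1 and NEAT1, were followed through the RNA-seq libraries of HGC-27 cells, an established gastric carcinoma cell line. They were chosen by name, and an RNA entered when the reference tables paired its symbol with 1 of the 63568 gene identifiers of the deposited tables. This held for 4 of the 7 RNAs, namely RN7SL2, RN7SK, MALAT1 and NEAT1, and all 4 passed the filter on low counts. RN7SL1, RMRP and RPPH1 were not matched to an identifier, so no value is given under these 3 symbols. Whether an identifier without a symbol stands for 1 of them was not tested, so they are not shown to be absent from the libraries.

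The libraries compared 2 groups of HGC-27 cells infected with lentivirus, 2 libraries with control (scrambled) shRNA and 2 with shRNA against USP47, a deubiquitinase gene, to ask how loss of USP47 changes the transcriptome. By the study's methods the cells were stable lines selected with puromycin, and no other genotype or agent separates the groups in the labels. The series text also speaks of DMSO vehicle for control cells, without saying for which assay. The labels give the extracted molecule as polyA RNA and name biological duplicates, while the methods speak of triplicates. Whether both USP47 shRNA libraries carry the same shRNA is not given in the sources used here. With 2 libraries per group, p-values measure the spread between these libraries only, and in bulk RNA a change in the number of cells cannot be told apart from a change in RNA per cell.

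Total counts were between 15649899 and 20140273 per library. USP47 was counted 1357 and 1297 times with control shRNA and 749 and 309 times with USP47 shRNA. By edgeR's quasi-likelihood test it fell by 1.34 on the log2 scale (SE, the standard error, 0.21; adjusted p = 0.00362). The defining epithelial markers were close to absent, with at most 19 counts of KRT8, 1 of KRT18, 1 of KRT19, 12 of EPCAM and 28 of CDH1 in any library. Of the gastric markers, MUC1 (244 to 470 counts), MUC6 (71 to 146) and CLDN18 (43 to 66) were detected, while TFF1, TFF2, MUC5AC, GKN1 and GKN2 had at most 3 counts. Of the mesenchymal markers, VIM had 7201 to 9236 counts, TWIST1 1850 to 2368 and ZEB1 977 to 2100, FN1 had 1240 and 1448 with control shRNA and 545 and 459 with USP47 shRNA, and CDH2 had at most 10. The blood and endothelial markers PTPRC, CD3E, CD68 and VWF had at most 12.

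7SL RNA, made from RN7SL1 and RN7SL2, is the RNA core of the signal recognition particle, which brings ribosomes that make secreted and membrane proteins to the endoplasmic reticulum. 7SK RNA, made from RN7SK, holds the elongation kinase P-TEFb inactive together with HEXIM1, LARP7 and MEPCE. Both are made by RNA polymerase III, as are the RNA subunits of RNase MRP (RMRP) and RNase P (RPPH1), and none of them carries a poly(A) tail. MALAT1 and NEAT1 are long RNAs made by RNA polymerase II that stay in the nucleus, MALAT1 in nuclear speckles and NEAT1 as the scaffold of paraspeckles. The human genome holds many copies of 7SL and 7SK, most of them pseudogenes.

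RN7SL2 lies on chromosome 14, on the minus strand and inside the long noncoding gene ENSG00000282885 of the same strand, which has no row of its own in the tables. The 7SL loci share long stretches of sequence. How the authors' counting treated reads that match several places is not given in the sources used here, so counts of single 7SL loci are uncertain and their sum is given beside them.

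The sequences printed here are of GRCh37, read 5′ to 3′ on the strand of the gene. RN7SK lies at chr6:52860418-52860748 (plus strand), and its most counted copy RN7SKP203 on chromosome 2 (minus strand). The first 300 bases of both are shown because the tables split 7SK counts between them. Capitals in RN7SK mark the letters GATC, which the 5′ hairpin of 7SK bound by HEXIM1 contains, and capitals in RN7SKP203 mark bases that do not match RN7SK.
RN7SK: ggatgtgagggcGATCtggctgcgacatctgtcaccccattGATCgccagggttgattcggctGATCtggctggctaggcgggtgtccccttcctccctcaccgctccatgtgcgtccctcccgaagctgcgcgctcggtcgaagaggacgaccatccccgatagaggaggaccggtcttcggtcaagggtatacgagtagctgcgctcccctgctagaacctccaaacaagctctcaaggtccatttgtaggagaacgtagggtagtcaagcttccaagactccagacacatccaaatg
RN7SKP203: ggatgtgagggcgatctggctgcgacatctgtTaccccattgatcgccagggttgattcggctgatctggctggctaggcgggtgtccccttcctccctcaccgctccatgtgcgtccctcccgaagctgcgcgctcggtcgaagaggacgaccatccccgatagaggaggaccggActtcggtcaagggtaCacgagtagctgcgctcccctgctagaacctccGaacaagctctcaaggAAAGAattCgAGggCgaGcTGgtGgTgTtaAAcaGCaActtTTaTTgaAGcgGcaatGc

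GATC was found 3 times in RN7SK. RN7SKP203 was 84.5% identical to RN7SK over the aligned length. Of the windows of 100 bases in RN7SK, 113 of 232 occur at 1 place in the genome, and of the windows of 150 bases all 182 do.

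MALAT1 lies at chr11:65265111-65275544 and NEAT1 at chr11:65190245-65213011, both on the plus strand. The stretch of MALAT1 around its longest run of A, chr11:65273469-65273609, is shown since the labels give the molecule as polyA RNA, with capitals for runs of at least 5 A.
MALAT1: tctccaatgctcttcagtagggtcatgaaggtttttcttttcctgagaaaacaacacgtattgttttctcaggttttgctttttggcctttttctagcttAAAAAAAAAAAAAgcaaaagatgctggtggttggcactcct

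That run was 13 bases long. GC content was 63.0% in RN7SL2, 58.0% in RN7SK, 42.0% in MALAT1 and 44.1% in NEAT1. The length used in the tables for NEAT1, 22767 bases, is the whole locus, so the short and the long NEAT1 RNA cannot be told apart. The unspliced MALAT1 locus spans 10434 bases and the length used in the tables was 8708. TALAM1, which runs antisense to MALAT1, has no row of its own in the tables, and another antisense gene there, ENSG00000270117, had 0 counts in all 4 libraries.

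RN7SL2 was the most counted of all identifiers. Its share of all counts was 4.40% and 5.41% with control shRNA and 4.72% and 6.04% with USP47 shRNA. The groups overlap, and in both the library numbered 2 had the higher share. The 95% Wilson interval of the highest share, 6.03% to 6.05%, shows that counting error was far smaller than the distance between libraries of 1 group. Such intervals cover counting error only.

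RN7SK ranked 12th by share, with 0.266% and 0.339% of counts with control shRNA and 0.336% and 0.472% with USP47 shRNA. The USP47 shRNA library of replicate 2 stood above the other 3, and the control library of replicate 2 and the USP47 shRNA library of replicate 1 had overlapping Wilson intervals. MALAT1 ranked 10th and took 0.384% and 0.346% with control shRNA and 0.384% and 0.346% with USP47 shRNA, so the groups had the same pair of shares to 3 digits. NEAT1 ranked 20th, with 0.258% and 0.238% with control shRNA and 0.201% and 0.172% with USP47 shRNA. For NEAT1 alone of the 4 did the shares of the groups not overlap.

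Together the 4 RNAs took 5.31% and 6.33% of counts with control shRNA and 5.64% and 7.03% with USP47 shRNA. The means were 5.82% ± 0.719 (SD, n = 2) and 6.34% ± 0.982 (SD, n = 2), a difference of 0.516 percentage points that was smaller than either SD (two-sided exact permutation test, p = 0.667, where 2 against 2 allows no p below 0.333). Without RN7SL2 the other 3 took between 0.908% and 0.990%, so RN7SL2 set the level of the sum. The difference was -0.178 percentage points without USP47 shRNA replicate 2.

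All 847 7SL identifiers together took 7.11% and 8.74% with control shRNA and 7.54% and 9.72% with USP47 shRNA. The difference of 0.705 percentage points was again within the spread of the libraries (two-sided exact permutation test, p = 0.667), and it was -0.387 without USP47 shRNA replicate 2 and also below 0 without control shRNA replicate 1. RN7SL2, RN7SL4P and RN7SL5P held 95.7% of these counts, and 292 of the 847 identifiers had no count in any library. RN7SL4P took 1.46% to 2.14% of all counts and RN7SL5P 0.927% to 1.20%, while RN7SL3 averaged 22081 counts and RN7SL752P 13759. Of the counts of these 847 identifiers in a library RN7SL2 held 61.8% to 62.6%, which hardly moved, and RN7SL4P 20.2% to 22.0%. The 847 were found by their symbol, so a 7SL locus without a symbol would be missing from these sums and shares. RN7SL5P held 13.0% and 13.7% with control shRNA and 12.4% and 12.3% with USP47 shRNA. The share of RN7SL752P, a less counted copy, ran from 0.706% to 1.08%.

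All 292 7SK identifiers took 0.404% and 0.509% with control shRNA and 0.507% and 0.717% with USP47 shRNA. RN7SK held 65.9% to 66.5% of them, and RN7SK, RN7SKP203 and RN7SKP80 together held 86.5%. RN7SKP203 was counted at 0.157, 0.155, 0.157 and 0.158 times RN7SK in control replicates 1 and 2 and USP47 shRNA replicates 1 and 2. The ratio was thus nearly the same in all 4 libraries.

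A single identifier without a symbol in the reference tables, ENSG00000258486, was second only to RN7SL2, with 3.39% and 3.53% of counts with control shRNA and 3.16% and 4.44% with USP47 shRNA. Its length in the tables was 300 bases. Whether it stands for one of the RNAs not matched here was not tested, and the shares of the 4 RNAs and of 7SL given above do not include it. With it, the 4 RNAs and all 7SL and 7SK identifiers took 11.5% and 13.4% with control shRNA and 11.8% and 15.4% with USP47 shRNA. Mitochondrial genes, the other large group, took 5.62% and 5.68% with control shRNA and 4.81% and 4.86% with USP47 shRNA, and protein-coding genes of the nucleus took 71.1% to 74.6%.

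**Figure D1:**
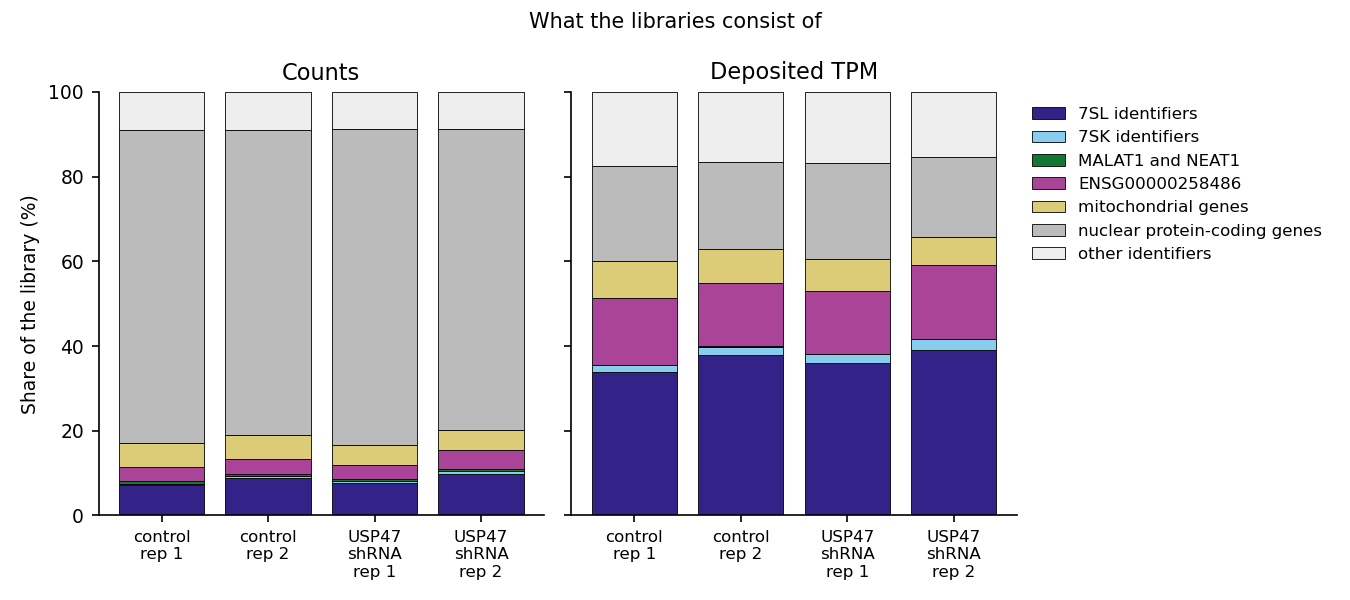
Share of the library (%, vertical axis) taken by 7 categories of identifiers in each of the 4 libraries, by counts on the left and by deposited TPM on the right. The 7SL, 7SK, MALAT1, NEAT1 and ENSG00000258486 segments together reach 15.4% of counts at most, and 59.2% of TPM, both in USP47 shRNA replicate 2.

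RN7SL2 is 297 bases long, and a stretch of that length holds 44253 different pairs of a start and an end position. The methods state that duplicate reads were removed, yet the counts of RN7SL2, between 718103 and 1055955, were 16.2 to 23.9 times that number. For RN7SK, 331 bases long, the counts were 0.790 to 1.34 times the 54946 possible pairs, and for ENSG00000258486 they were 12.2 to 15.4 times the 45150. For MALAT1 the counts stayed at or below 0.00204 times the possible pairs. How duplicates were treated in the deposited counts was not tested further.

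Per length the order of the 4 RNAs was clear. In TPM, which divides counts by gene length and scales each library to the same sum, RN7SL2 stood at 207654 and 232445 with control shRNA and 223290 and 240660 with USP47 shRNA. RN7SK followed with 11266 and 13064 TPM, and 14251 and 16873 TPM. MALAT1 had 617 and 507 TPM, and 620 and 470 TPM, and NEAT1 had 159 and 134 TPM, and 124 and 89.6 TPM. No neighbours in this order overlapped in any library.

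After TMM normalization, which sets a scaling factor per library from genes of middle abundance and change, levels were compared as TMM CPM (counts scaled to the adjusted library size). RN7SL2 had 42338 and 53824 TMM CPM with control shRNA and 45729 and 65871 with USP47 shRNA. The groups overlapped, and the log2 fold change was 0.21 (SE 0.25, 95% interval -0.34 to 0.77, adjusted p = 0.591, edgeR). It was 0.46 without USP47 shRNA replicate 1 and -0.07 without USP47 shRNA replicate 2, so its direction rested on 1 library.

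RN7SK had 2560 and 3371 TMM CPM with control shRNA and 3253 and 5147 with USP47 shRNA. The highest level was in USP47 shRNA replicate 2 and the other 3 libraries overlapped. The log2 fold change was 0.50 (SE 0.23, 95% interval -0.02 to 1.02, adjusted p = 0.167, edgeR). It fell to 0.14 without USP47 shRNA replicate 2 and came to 0.80 without USP47 shRNA replicate 1.

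MALAT1 had 3688 and 3440 TMM CPM with control shRNA and 3721 and 3771 with USP47 shRNA. The levels did not overlap but lay close together, with means of 3564 ± 175 and 3746 ± 35.4 TMM CPM (SD, n = 2 each). The log2 fold change was 0.07 (SE 0.16, 95% interval -0.29 to 0.43, adjusted p = 0.797, edgeR). Of the 4 RNAs MALAT1 was the one with the smallest fold change.

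NEAT1 had 2478 and 2372 TMM CPM with control shRNA and 1947 and 1880 with USP47 shRNA. Both USP47 shRNA libraries lay below both control libraries, at means of 1913 ± 47.7 and 2425 ± 75.1 TMM CPM (SD, n = 2 each), which is 0.789 times the control level. The log2 fold change was -0.34 (SE 0.15, 95% interval -0.68 to -0.00020, unadjusted p = 0.0499, adjusted p = 0.156, edgeR). The distance between the groups was larger than the spread within them, but the test across all genes did not call it. Leaving out each library in turn gave -0.38 to -0.31.

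None of the 4 RNAs was called at an adjusted p under 0.05 by edgeR, 1 (NEAT1) had an unadjusted p under 0.05, and DESeq2 also called 0. Of all 21932 genes tested, 3527 (16.1%) were called, 1430 (6.52%) of them higher and 2097 (9.56%) lower, and 7035 (32.1%) had an unadjusted p under 0.05. TMM CPM did not overlap between the groups for 2 of the 4 RNAs, MALAT1 and NEAT1, and for 61.0% of all genes tested. Of the 57 genes with a mean of at least 1000 TMM CPM, which include all 4, 1 (1.75%) was called, and that was SCD, a desaturase of fatty acid synthesis (log2 fold change -1.59). With each library left out in turn, 1 group holds a lone library. Which of the 4 RNAs and how many of all genes were called then changed with the library left out. In those fits the log2 fold change ran from -0.07 to 0.46 for RN7SL2 and from 0.14 to 0.80 for RN7SK. It ran from 0.02 to 0.12 for MALAT1 and from -0.38 to -0.31 for NEAT1.

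**Figure D2:**
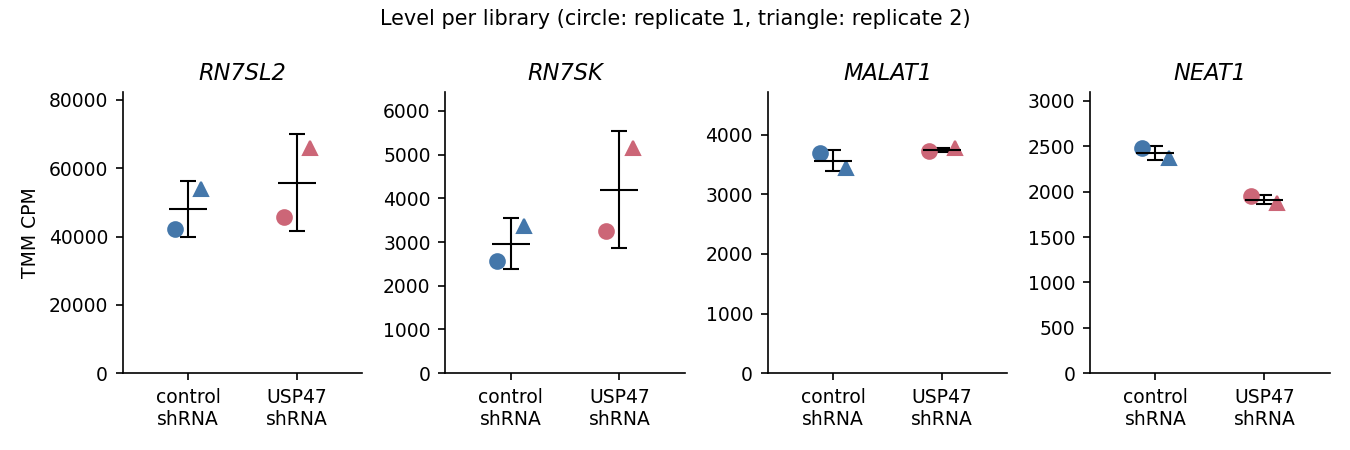
TMM CPM (vertical axes, from 0, a scale of its own for each RNA) of RN7SL2, RN7SK, MALAT1 and NEAT1 in the control shRNA (blue) and USP47 shRNA (red) libraries, with circles for replicate 1, triangles for replicate 2 and bars for the mean ± SD of the 2 libraries. NEAT1 lies at 1880 and 1947 with USP47 shRNA against 2372 and 2478 with control shRNA, while RN7SL2 and RN7SK overlap.

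Ratios between RNAs of 1 library need no scaling factor. They compare counts after the polyA selection, whose effect on each RNA was not tested. NEAT1 was counted 0.672 and 0.690 times as often as MALAT1 with control shRNA and 0.523 and 0.498 times with USP47 shRNA. The means were 0.681 ± 0.0124 and 0.511 ± 0.0176 (SD, n = 2), and the groups were far apart for their spread (two-sided exact permutation test, p = 0.333, the smallest that 2 against 2 allows, and 0.917 after adjustment over the 11 ratios computed). RN7SK was counted 0.0605 and 0.0626 times as often as RN7SL2 with control shRNA and 0.0711 and 0.0781 times with USP47 shRNA, also without overlap (exact p = 0.333, adjusted 0.917). So although RN7SK and RN7SL2 each overlapped between the groups, their ratio did not. NEAT1 over RN7SK and RN7SL5P over RN7SL2 did not overlap either, and the remaining ratios computed did. RN7SK over MALAT1 overlapped, with 0.694 and 0.980 against 0.874 and 1.36. Lack of overlap was common, since TMM CPM of single genes did not overlap between the groups for 61.0% of all genes tested. No such share was computed for ratios.

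The share of the abundant RNAs enters the size by which a library is scaled. Relative to the geometric mean of the 4 libraries, USP47 shRNA replicate 2 had a size of 0.879 by its total, 0.870 without the 4 RNAs, 0.864 without them and all 7SL and 7SK copies, and 0.855 without ENSG00000258486 as well. The TMM size was 0.808, and it was the same to 3 digits when these identifiers were left out of its computation. For this library, leaving the abundant RNAs out of the total thus went part of the way from the total to the TMM size. Control shRNA replicate 2 moved away from its TMM size of 1.105, from 1.097 by its total to 1.093 without all of these identifiers.

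The median log2 fold change over all 21932 genes was -0.07 when libraries were scaled by their totals, -0.061 without the 4 RNAs and all copies, -0.056 without ENSG00000258486 too, and -0.0083 with TMM. Genes called numbered 2804, 3183, 3281 and 3527 in that order, of which 31.5%, 33.6%, 34.3% and 40.5% were higher. Scaling by the counts of protein-coding genes of the nucleus, which leaves out the abundant RNAs and the mitochondrial genes, gave a median of -0.073 and 3380 calls, of which 31.4% were higher, no nearer to TMM in median and split than the totals. With TMM computed without the abundant RNAs 3526 genes were called, of which 3521 were also called with them. None of the 4 RNAs was called under any of these scalings. NEAT1 came nearest, at a log2 fold change of -0.41 (SE 0.11, adjusted p = 0.0515, edgeR) with library totals, where over the 14 alternatives that kept all libraries and no block its adjusted p was 0.0515 to 0.178.

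**Figure D3:**
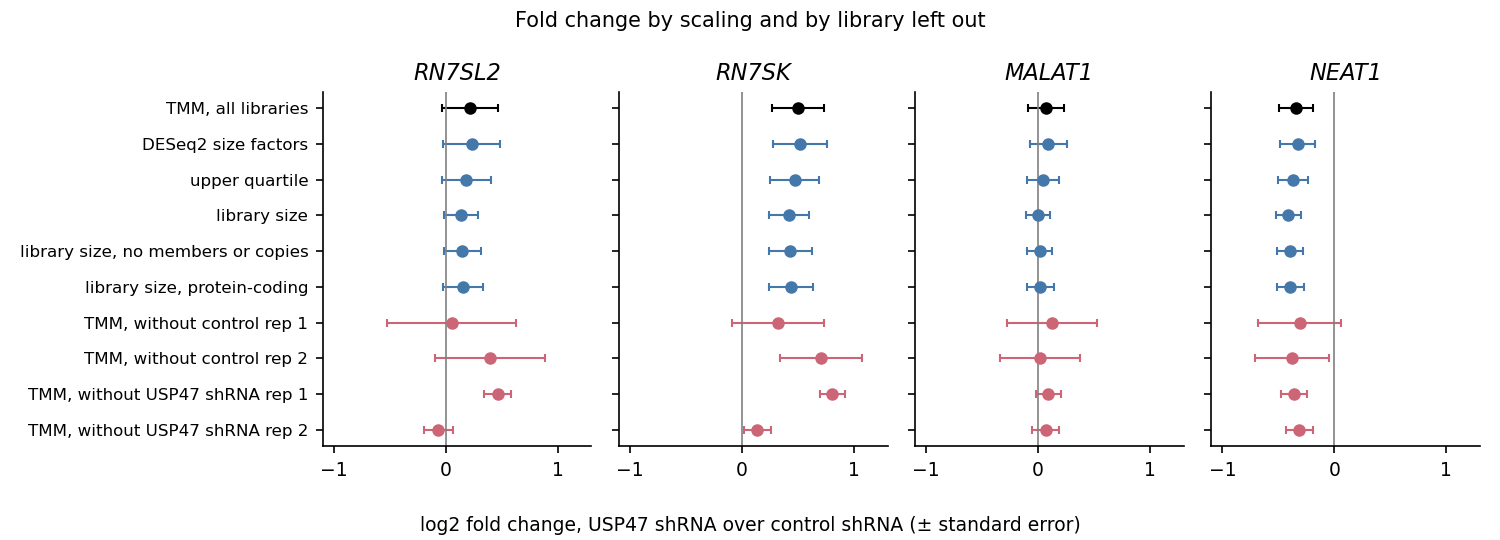
Log2 fold change of USP47 shRNA over control shRNA (horizontal axis, 0 marked by a grey line) for the 4 RNAs under 6 scalings (black for TMM, blue for the others) and with each library left out (red), with bars for ± 1 standard error of the fit. NEAT1 stays between -0.41 and -0.31 throughout, while RN7SL2 runs from -0.07 to 0.46 and RN7SK from 0.14 to 0.80 as libraries are left out.

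The deposited TPM carried the abundant RNAs more heavily than the counts did. RN7SL2 alone took 20.8% to 24.1% of the TPM of a library. The 4 RNAs, all 7SL and 7SK identifiers and ENSG00000258486 took 51.4% and 55.0% with control shRNA and 53.0% and 59.2% with USP47 shRNA. All 19475 protein-coding genes of the nucleus shared 22.39% and 20.38%, and 22.63% and 18.98%.

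For 13633 protein-coding genes the median deviation of a library from the mean of the 4 was taken on the log2 scale. In deposited TPM it was 0.15 and -0.03 with control shRNA and 0.14 and -0.25 with USP47 shRNA, so the middle protein-coding gene read 1.33 times higher in the highest library than in the lowest. The span fell to 1.14 times when TPM was rescaled without the abundant RNAs, was 1.12 times in TPM rescaled to protein-coding genes of the nucleus and in CPM of the library total, and was 1.02 times in TMM CPM. The median log2 difference of USP47 shRNA from control shRNA for these genes was -0.12 in deposited TPM, -0.025 after rescaling without the abundant RNAs, -0.077 after rescaling to protein-coding genes of the nucleus, -0.068 in CPM of the total and 0.0033 in TMM CPM. A change read from the deposited TPM is therefore relative to a shift of -0.12 in the middle protein-coding gene.

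**Figure D4:**
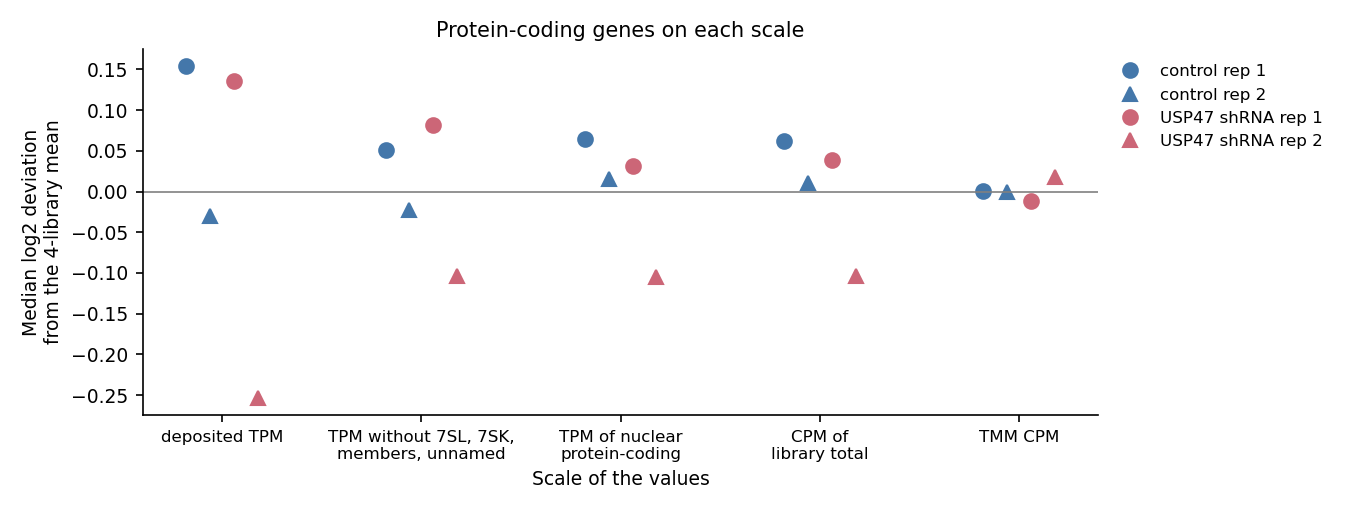
Median deviation of 13633 protein-coding genes from the mean of the 4 libraries (vertical axis, log2) on 5 scales of the values, with circles for replicate 1, triangles for replicate 2, blue for control shRNA and red for USP47 shRNA. The libraries span 0.41 in deposited TPM, with USP47 shRNA replicate 2 lowest, and 0.028 in TMM CPM.

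Among 10566 genes with a mean of at least 10 TMM CPM, those whose log2 profile over the 4 libraries lay nearest were taken for each RNA (Euclidean distance of mean-centred values). For RN7SK all 3 were its own copies, RN7SKP203 (distance 0.021), RN7SKP255 (0.064) and RN7SKP274 (0.069). Copies share sequence with RN7SK, and how reads that match several places were counted is not given in the sources used here. Whether the same reads make these profiles alike was not tested. For RN7SL2 they were CHCHD1 (0.036), TMEM205 (0.049) and the pseudogene ENSG00000219928 (0.050), and no 7SL copy was among them. For MALAT1 they were C1orf174 (0.0094), RALGAPB (0.012) and SETD5 (0.013), and for NEAT1 UBE2E1 (0.011), SMARCA2 (0.017) and PRPF40B (0.022). These names describe a likeness over 4 libraries only.

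Of the 108 7SL identifiers that passed the filter, RN7SL2 included, 2 were called and both were lower, RN7SL767P (log2 fold change -1.93) and RN7SL296P (-2.03), where 16.1% of all genes tested were called and 9.56% were lower. RN7SL767P had 33.0 and 59.7 TMM CPM with control shRNA and 9.28 and 15.3 with USP47 shRNA, and RN7SL296P 1.77 and 2.65 against 0.481 and 0.627. Of 39 7SK identifiers tested, 1 was called, RN7SKP79, which was higher (0.74, with 8.55 and 11.1 against 16.5 and 16.4 TMM CPM). The median log2 fold change was 0.06 over the 7SL identifiers and 0.29 over the 7SK identifiers, where all genes tested had -0.0083. Copies share sequence with RN7SL2 or RN7SK, so the identifiers of a family are not independent genes.

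Of the 8 proteins of the signal recognition particle and its receptor, 3 were called higher and 1 lower, where 6.52% of all genes tested were higher and 9.56% lower, and the median log2 fold change was 0.14. SRPRA and SRPRB, the 2 subunits of the receptor, had log2 fold changes of 0.72 (adjusted p = 0.00758, edgeR) and 0.59 (adjusted p = 0.0144). SRP14, which with SRP9 binds the Alu part of 7SL, went from 42.2 and 42.8 to 66.5 and 65.7 TMM CPM, a log2 fold change of 0.64 (adjusted p = 0.00824). SRP9 fell, from 112 and 108 to 85.4 and 73.2 TMM CPM, by 0.47 on the log2 scale (adjusted p = 0.0376). The RNA counts for the partners of this heterodimer thus changed in opposite directions. Here and in the other lists of proteins the values are of RNA, and the libraries do not measure protein.

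Of 10 genes of the 7SK particle and of P-TEFb, 2 were called, both higher, with a median log2 fold change of 0.04. Of all genes tested 16.1% were called, which this count lies near, and 6.52% were called higher. Whether 2 of 10 differs from these shares was not tested. MEPCE, which caps 7SK, went from 69.6 and 79.8 to 108 and 130 TMM CPM (log2 fold change 0.67, adjusted p = 0.0123, edgeR). HEXIM1, which inhibits P-TEFb when bound to 7SK, went from 79.6 and 77.1 to 104 and 118 TMM CPM (0.50, adjusted p = 0.0264). LARP7, which holds the 3′ end of 7SK, was not called (-0.006, adjusted p = 0.992), and neither was the kinase CDK9 (-0.14, adjusted p = 0.600).

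Of the 30 genes of RNA polymerase III and its factors, 4 were called, all higher, with a median log2 fold change of 0.14. This count too lies near the 16.1% of all genes called, while 6.52% of all genes were called higher. At an unadjusted p under 0.05 12 of the 30 passed by edgeR, where 32.1% of all genes tested did. Whether these counts differ from the shares of all genes was not tested. The 4 called were the subunits POLR3C (0.62), POLR3G (0.66) and POLR3A (0.46) and MAF1 (0.63), a repressor of the polymerase. Of 11 proteins of RNase P and RNase MRP, 1 was called, RPP40, which was higher (0.56), with a median of 0.27, and DESeq2 called 0 of the 11. Their RNA subunits, RPPH1 and RMRP, are among the RNAs not matched here.

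Of 12 paraspeckle proteins 0 were called in either direction, where 16.1% of all genes tested were (median log2 fold change 0.00072), among them NONO at 0.13 and SFPQ at -0.12, which bind NEAT1, and CPSF6 at -0.33. At an unadjusted p under 0.05 1 of the 12 passed by edgeR, where 32.1% of all genes tested did. DESeq2 called 0 of the 12, and 2295 of the 16453 genes to which it gave an adjusted p. Of 10 nuclear speckle proteins, 0 were called (median 0.0086), with SRSF5 at 0.31, SRRM2 at 0.34 and RNPS1 at 0.22, 2 passed at an unadjusted p under 0.05, and DESeq2 called 0.

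**Figure D5:**
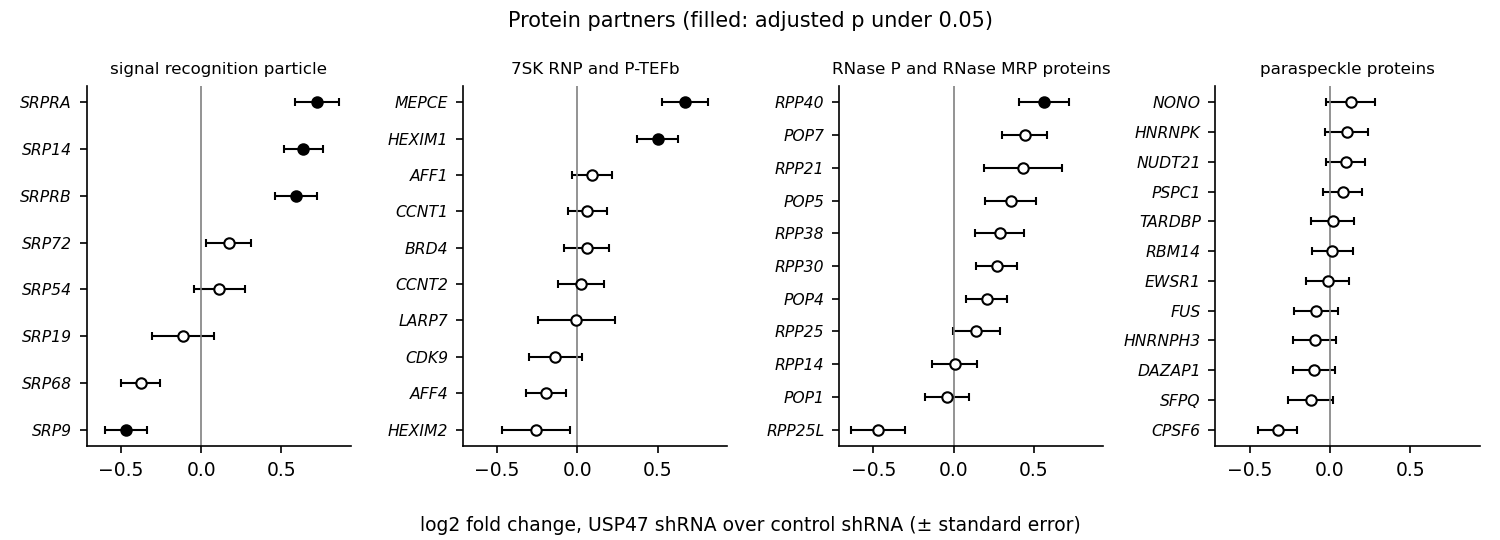
Log2 fold change of USP47 shRNA over control shRNA (horizontal axes, bars ± 1 standard error, 0 marked by a grey line) for the proteins of the signal recognition particle, of the 7SK particle and P-TEFb, of RNase P and RNase MRP, and of paraspeckles, with filled points for an adjusted p under 0.05. SRP14 at 0.64 and SRP9 at -0.47 lie on opposite sides, and no paraspeckle protein is filled.

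Other noncoding RNAs give the setting of these values. Among 3386 long noncoding RNA genes tested, 8.27% were called lower and 2.78% higher. Of 29 other well known long noncoding RNAs, 4 were called lower, DANCR (log2 fold change -1.04), HOTAIR (-0.69), TUG1 (-0.65) and NORAD (-0.51), and 2 higher, MIR22HG (1.06) and EPB41L4A-AS1 (0.58), with a median of 0.02. Of 21 small noncoding RNAs tested, 1 was called lower and 1 higher, where 9.56% of all genes tested were called lower and 6.52% higher. BCYRN1, a primate RNA of neurons related to Alu and 7SL, fell from 74.1 and 76.9 to 48.7 and 41.8 TMM CPM (-0.74). Reads from near-identical Alu repeats can enter its count. SCARNA7, a Cajal body RNA, was called higher (0.69). SNORD3A, a U3 RNA, was not called (0.23, adjusted p = 0.651, edgeR) and, like RN7SL2, had its higher levels in the libraries numbered 2, with 2206 and 3520 against 2228 and 4466 TMM CPM. Of 32 mitochondrial genes tested, 1 was called by edgeR, where 16.1% of all genes tested were, and DESeq2 called 0. The 1 called was the transfer RNA MT-TT, which was higher (1.33, with 0.531 and 0.816 against 1.39 and 2.16 TMM CPM).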

How the data were processed

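The data are RNA-seq of 4 libraries of HGC-27 cells, 2 per group, grouped by the submitters' labels. Per the methods, the authors cut bases of quality under 20, aligned to hg19 with STAR 2.7.5c and took out duplicate and poor reads with SAMtools 1.9. The submitters' processing notes also list featureCounts, Picard 2.23.3, deepTools 3.5.0.97 and DESeq2 1.26.0, and the builds hg19 and mm10. The labels name a stranded kit and the methods another kit. The gene annotation, the use of strand in counting and the treatment of reads that match several places are not given in the sources used here. The authors deposited counts per gene without normalization, together with FPKM and TPM values that they derived from counts and gene length. The deposited FPKM served only to read the gene lengths, and the deposited TPM to compare levels between genes and shares.

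Counts were tested with edgeR 4.0.16 in R 4.3.3 (filterByExpr, TMM, robust quasi-likelihood fit, both directions, Benjamini-Hochberg adjusted p under 0.05 over all 21932 genes). The SE of a log2 fold change is its absolute value over the square root of its F statistic. No pseudocount enters the fold changes of the members beyond the small prior count of edgeR. Shares and ratios were compared by two-sided exact permutation tests. Symbols and positions came from GENCODE release 44 lifted to GRCh37 and a table of gene names, which paired 55665 identifiers with a symbol. Sequences were read from GRCh37, RN7SKP203 was aligned to RN7SK with Biopython 1.88, and windows were matched exactly on both strands. The sequences of some loci are not reported here. Genes were named by a rule: the 7 RNAs, USP47, the identifiers with most counts, the most counted 7SL and 7SK copies, the 3 nearest profiles of each RNA, and the 3 genes with the smallest p of each list. SCD, SNORD3A, LARP7, CDK9 and further list members were named after their values were seen. The members and lists were chosen with earlier results of these data known. The steps were tested on simulated data. Alternatives covered the test, the scaling, the filter, a replicate block and each library left out.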

Additional observations from a re-analysis of the deposited data

How the results depend on the processing

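In all, 14 other settings kept all 4 libraries and used no block, 4 of them chosen after seeing the data (the older quasi-likelihood method, library size or TMM without the 4 RNAs, their copies and ENSG00000258486, and library size of nuclear protein-coding genes). Under these 14, none of the 4 RNAs was called, and the log2 fold changes were 0.13 to 0.23 for RN7SL2, 0.42 to 0.52 for RN7SK, 0.0018 to 0.093 for MALAT1 and -0.41 to -0.32 for NEAT1. The number of genes called, 3527 by TMM and edgeR, was within 1.5 times of that under 13 of the 14 and 2295 with the DESeq2 Wald test (1122 higher), which gave an adjusted p to 16453 genes. With the replicate block 7422 genes were called, 1 of the 4 RNAs among them, RN7SK at 0.48 (adjusted p = 0.0111, edgeR). The labels tie the replicate numbers to no shared batch. Deviations of same-numbered libraries correlated at 0.213 across genes. With 2 pairs this cannot decide whether the libraries were paired, so no pairing was assumed. With each library left out, which leaves 1 group with a lone library that is assumed to vary like the other group, 1230 to 7270 genes and 0 to 3 of the 4 RNAs were called. The fewest calls came without control shRNA replicate 1 (1230) and replicate 2 (1415), the most without USP47 shRNA replicate 1 (7270) and replicate 2 (6517), and the cause was not tested. The log2 fold changes were -0.068 to 0.46 for RN7SL2, 0.14 to 0.80 for RN7SK, 0.02 to 0.12 for MALAT1 and -0.38 to -0.31 for NEAT1, with RN7SL2, RN7SK and NEAT1 called without USP47 shRNA replicate 1 and NEAT1 without USP47 shRNA replicate 2. The difference in the share of the 4 RNAs was -0.178 to 1.21 percentage points and that of all 7SL identifiers -0.387 to 1.80. As shares of nuclear counts, of protein-coding counts or of TPM both differences stayed above 0 with an exact p of 0.667. The Wilson intervals of the shares of the 4 RNAs, which cover counting error only, were narrower than the distances between libraries of 1 group.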
